A study of Homo sapiens with 8 samples.

Results

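The LSm proteins LSM1 to LSM8 are 8 small proteins with an Sm-like fold that assemble into ring-shaped complexes on RNA. Their genes were taken by symbol, and all 8 were found among the 17912 genes in the data. RNA was measured in the human myeloid leukemia line NKM-1, an established cell line whose labelled genotype is wildtype. The 4 control libraries came from cells kept with DMSO, the solvent, for 48 h, and the 4 treated libraries from cells kept with SF153 at 30 uM for 48 h. The series title calls the compound an inhibitor of UHM splicing factors, which carry a U2AF homology motif. Each treatment had 2 libraries under each of the numbers 1 and 2 in the sample titles, here called batches. A library is named by its batch and its number, as in SF153 2.1. The labels do not say that libraries 1.1 and 1.2 came from separate cultures, so every p-value measures only library-to-library spread, which may be technical.

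Eukaryotic cells build a pair of LSm rings that differ in a single subunit. The ring with LSM1 and LSM2 to LSM7 is cytoplasmic, binds the shortened tail of an mRNA together with PATL1, and leads to removal of the cap by DCP2 and decay by XRN1. The ring with LSM8 and LSM2 to LSM7 is nuclear, binds the uridine-rich 3′ end of U6 small nuclear RNA, and helps U6 to pair with U4 for the spliceosome. LSM1 thus marks the decay ring, LSM8 marks the U6 ring, and the other 6 subunits serve both. The related Sm proteins form the ring on the U1, U2, U4 and U5 small nuclear RNAs.

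The 8 genes are dispersed over the genome, 2 of them on chromosome 7 and 2 on chromosome 19. In GENCODE release 29 on GRCh38, LSM2 lies on chromosome 6 (31797396 to 31806984), LSM3 on chromosome 3 (14178358 to 14201119), and LSM4 on chromosome 19 (18306230 to 18323274). LSM5 lies on chromosome 7 (32485332 to 32495283), LSM6 on chromosome 4 (146175685 to 146200000), LSM7 on chromosome 19 (2321517 to 2328620) and LSM8 on chromosome 7 (118184032 to 118192824). The longest basic transcript ranged from 575 nt for LSM7 to 4030 nt for LSM8, with 3 to 5 exons. The deposited signal is named both CPM and TPM per the labels, so whether it was divided by transcript length is not settled. Any order of signal between genes is therefore an order of deposited values and may not be one of transcript abundance.

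RefSeq promoter windows on GRCh38.p14, from 250 bases before to 50 bases after a start site, were matched for 6 of the 8 genes, in 7 windows. The stretches printed here belong to LSM2 and LSM5, which had the 2 largest differences between treatments in the results that follow, and to LSM8, which did not pass the test. Each is the longest part before the RefSeq start that no GENCODE exon overlaps, on the strand of the gene. They are chr6:31806985-31807216 on the minus strand for LSM2, chr7:32495284-32495425 on the minus strand for LSM5 and chr7:118183914-118184031 on the plus strand for LSM8. Capitals mark letters that match a searched motif on either strand: CCGGAA in LSM8, where a match on each strand overlaps, and GGGCGG in LSM5.
LSM2: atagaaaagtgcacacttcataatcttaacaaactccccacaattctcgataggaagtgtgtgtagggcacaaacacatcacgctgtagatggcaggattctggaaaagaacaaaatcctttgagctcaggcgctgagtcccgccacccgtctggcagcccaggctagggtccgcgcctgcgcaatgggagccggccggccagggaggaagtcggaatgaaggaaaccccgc
LSM5: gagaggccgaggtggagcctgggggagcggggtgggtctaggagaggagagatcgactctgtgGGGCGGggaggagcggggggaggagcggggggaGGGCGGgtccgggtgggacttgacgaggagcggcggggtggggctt
LSM8: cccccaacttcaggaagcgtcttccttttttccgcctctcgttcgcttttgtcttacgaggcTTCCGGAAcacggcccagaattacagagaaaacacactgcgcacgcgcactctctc
Over the whole windows, CCGGAA, the core bound by ETS factors, matched in those of LSM3, LSM5 and LSM8, against 17.2% of all 35116 windows. The CCAAT box, CCAAT, matched for LSM4, LSM5 and LSM8, against 34.6% of windows. GGGCGG, bound by SP and KLF factors, matched for LSM2, LSM3, LSM4, LSM5 and LSM7, against 45.0%. The NRF1 letters GCATGCGC and the YY1 letters AAGATGGCG matched for LSM7 only, against 3.05% and 1.75% of windows, and TATAAA, found in 11.5%, matched for none of the 6 genes. These matches describe letters in a window and not bound sites.

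The libraries carried the markers of the labelled cell type. All 7 analysed myeloid markers had a signal of at least 1 in every library, and their summed signal was 1286 to 1359 with DMSO and 955 to 1144 with SF153. They did not move one way: MPO (-0.66) and CEBPA (-0.76) were called lower, CD33 (0.40) and ITGAM (0.42) were called higher, and PTPRC, SPI1 and CSF3R were not called. The direction of MPO turned with quantile normalization (0.42). Of 18 markers of other cell types, 16 were not analysed here, CD79A went from a mean of 27.1 to 6.72, and PDGFRB from 28.5 to 24.8. The libraries differed in composition: mitochondrially encoded genes held 16.8% in SF153 2.1 and in SF153 2.2 and 9.17% to 9.92% elsewhere, and the 7SK RNA gene RN7SK held 18.7% and 18.2% in those of SF153 batch 1 and 11.4% to 13.9% elsewhere, all as shares of a library's signal. The summed signal was lowest in SF153 2.1, at 828381, and highest in DMSO 2.2, at 1027119. A refit without mitochondrial and small RNA genes moved the median log2 difference of the 8 LSm genes from -0.98 to -0.67. The part of these shifts in each result below was not tested. In bulk RNA, fewer cells that express a gene and less of its RNA per cell cannot be told apart.

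LSm ring mRNAs were lower after 48 h of SF153, although the small difference of LSM8 (-0.20) did not pass the test after adjustment. Differences were tested with limma on log2(signal + 1) over 15542 genes, and genes with a p below 0.05 after Benjamini-Hochberg adjustment were called. By that test 7 of the 8 genes were lower and 0 were higher, where 24.3% of all genes tested were called lower and 13.0% higher. At an unadjusted limma p under 0.05, 8 were lower and 0 higher. The share of all genes at that level was not counted, so the unadjusted counts here and below have no background beside them. In the same 7 genes every SF153 library lay below every DMSO library, a separation found in 23.6% of all genes tested. The median log2 difference of the 8 genes was -0.98, against -0.03 for all genes tested. The 7 calls held when each library in turn was left out. They also held with median-of-ratios scaling, with quantile normalization and after removal of mitochondrial and small RNA genes, and only the call for LSM7 was lost, at -0.48, when a trend on transcript length and mean signal was removed.

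**Figure D1:**
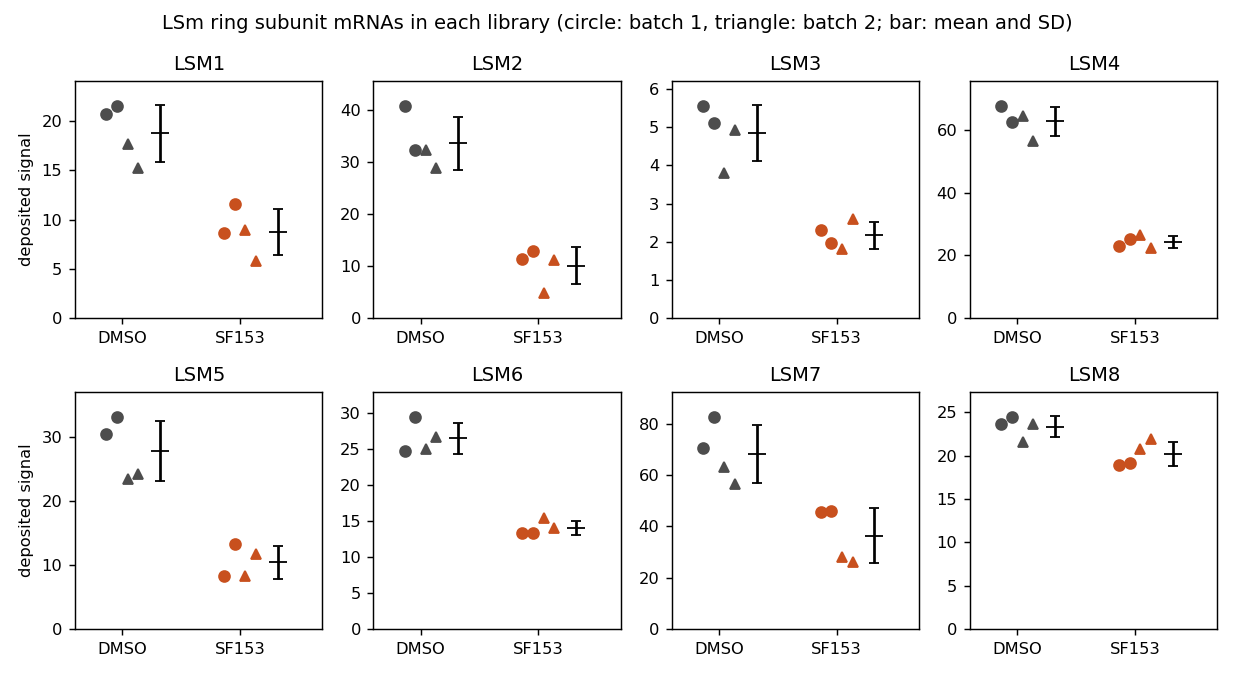
Deposited signal (linear axis from 0) of LSM1 to LSM8 in 4 DMSO (grey) and 4 SF153 (orange) libraries, with circles for batch 1, triangles for batch 2, and a bar for the mean and SD of 4. The SF153 points of 7 genes lie below all their DMSO points, and those of LSM8 reach from 18.9 to 21.9, into the DMSO range of 21.6 to 24.4.

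LSM1, the subunit that makes a ring cytoplasmic and competent in mRNA decay, is encoded on chromosome 8 (38163321 to 38176730, GENCODE release 29, GRCh38). It had a signal of 20.7, 21.5, 17.6 and 15.2 in DMSO 1.1, 1.2, 2.1 and 2.2. In SF153 1.1, 1.2, 2.1 and 2.2 it had 8.61, 11.6, 8.91 and 5.81. The highest SF153 library stayed below the lowest DMSO library, and DMSO batch 2 lay below DMSO batch 1. The mean fell 2.15-fold, from 18.7 ± 2.88 (SD, n = 4) to 8.72 ± 2.35 (SD, n = 4). On the log2(signal + 1) scale the difference was -1.04 ± 0.19 (SE; limma adjusted p = 0.00193), with -1.01 in batch 1 and -1.08 in batch 2.

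LSM8, which takes the place of LSM1 in the nuclear ring on U6, had a signal of 23.7, 24.4, 21.6 and 23.6 in the DMSO libraries. The SF153 libraries had 18.9, 19.1, 20.8 and 21.9, in the same order of libraries. The SF153 libraries of batch 2 came close to the DMSO libraries, and SF153 2.2 lay above DMSO 2.1. The means were 23.3 ± 1.23 and 20.2 ± 1.41 (SD, n = 4 each). The log2 difference of -0.20 had a 95% interval from -0.39 to -0.01 and did not pass the threshold after adjustment (limma adjusted p = 0.0917). It was -0.32 in batch 1 and -0.08 in batch 2, and its sign turned under 2 scalings, to 0.01 with quantile normalization and 0.13 without mitochondrial and small RNA genes. By adjusted p, LSM8 was called in 0 of 21 alternative limma settings.

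Among the subunits that both rings share, LSM2 showed the largest difference. Its signal was 40.6, 32.3, 32.4 and 28.9 in the DMSO libraries and 11.4, 12.9, 4.86 and 11.1 in the SF153 libraries. SF153 2.1 was the lowest by far, and the other 3 SF153 libraries lay close together. LSM2 fell 3.33-fold, from 33.5 ± 5.0 to 10.1 ± 3.57 (SD, n = 4 each), a log2 difference of -1.70 ± 0.25 (SE; limma adjusted p = 0.000637). Without SF153 2.1 the difference of LSM2 was -1.42, near that of LSM4 in the same fit, -1.37.

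LSM5 followed in size. It had 30.5, 33.2, 23.5 and 24.2 in the DMSO libraries and 8.35, 13.3, 8.26 and 11.7 in the SF153 libraries. DMSO batch 2 lay below DMSO batch 1, while the SF153 batches were mixed. LSM5 fell 2.68-fold, with a log2 difference of -1.35 ± 0.17 (SE; limma adjusted p = 0.0003). LSM4, whose protein carries a long arginine- and glycine-rich tail, had one of the 2 highest mean signals with either treatment. Its signal was 67.5, 62.6, 64.4 and 56.5 with DMSO and 23.2, 25.1, 26.6 and 22.5 with SF153. The libraries of each treatment lay close together and far from those of the other treatment. LSM4 fell 2.58-fold, from 62.7 ± 4.60 to 24.3 ± 1.90 (SD, n = 4 each), a log2 difference of -1.33 ± 0.09 (SE; limma adjusted p = 1.59e-05), the smallest p of the 8 genes.

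LSM3 had the lowest mean signal of the 8 genes in both treatments. It had a signal of 5.54, 5.10, 3.80 and 4.92 in the DMSO libraries and 2.31, 1.97, 1.81 and 2.60 in the SF153 libraries. All SF153 libraries lay below the lowest DMSO library, DMSO 2.1. The mean fell 2.23-fold, whereas the log2 difference was -0.88 ± 0.16 (SE; limma adjusted p = 0.00229), since adding 1 to low values understates their change. In batch 2 alone the difference of -0.74 was not called (limma adjusted p = 0.111). The pseudogene LSM3P5, which could share reads with LSM3, had 1.46 ± 1.44 with DMSO and 1.11 ± 1.22 with SF153 (SD, n = 4 each) and was not called.

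LSM6 had 24.6, 29.4, 25.0 and 26.7 with DMSO and 13.3, 13.3, 15.3 and 14.0 with SF153. Its SF153 libraries spanned a narrow range well below the DMSO libraries. LSM6 fell 1.89-fold, a log2 difference of -0.87 ± 0.09 (SE; limma adjusted p = 0.000108). An unnamed gene of uncertain type overlaps LSM6 on the same strand, and the sources used here do not say how reads were split between them.

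LSM7 was the subunit with the highest mean signal in both treatments, and its SF153 libraries lay apart by batch. Its signal was 70.6, 82.7, 63.1 and 56.6 in the DMSO libraries and 45.5, 45.9, 28.1 and 26.3 in the SF153 libraries. The 2 SF153 libraries of batch 2 lay far below those of batch 1, and all 4 lay below DMSO 2.2. LSM7 fell 1.87-fold, from 68.2 ± 11.2 to 36.5 ± 10.7 (SD, n = 4 each), a log2 difference of -0.92 ± 0.20 (SE; limma adjusted p = 0.00556). Within batches it was -0.73 in batch 1 and -1.11 in batch 2, both called. SF153 2.1 and 2.2 also held the higher mitochondrial share, 16.8%, and its part in this gap was not tested. Without mitochondrial and small RNA genes the difference of LSM7 over both batches was -0.58 and was still called (limma adjusted p = 0.0190). When the 2 libraries that share a treatment and a batch were averaged, the difference of -0.92 was not called (limma adjusted p = 0.060).

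The order of the subunits by deposited signal, whose division by transcript length is not settled, differed between the treatments. With DMSO the means ran LSM7, LSM4, LSM2, LSM5, LSM6, LSM8, LSM1 and LSM3, from 68.2 down to 4.84. The ranges of LSM7 and LSM4 overlapped, as did those of LSM2 with LSM5 and of LSM5 with LSM6, so that these neighbours did not differ beyond their spread. LSM8 lay just below the range of LSM6, and LSM1 just below that of LSM8. With SF153 the order was LSM7, LSM4, LSM8, LSM6, LSM5, LSM2, LSM1 and LSM3, from 36.5 down to 2.17. Here LSM8 moved from rank 6 to rank 3 and stood apart from its neighbours, whereas the ranges of LSM6, LSM5, LSM2 and LSM1 overlapped from each to the next. LSM8 held 8.83% ± 0.782 of the summed signal of the 8 genes with DMSO and 16.2% ± 2.74 with SF153, and LSM2 held 12.6% ± 1.35 and 7.88% ± 2.46 (SD, n = 4 each). LSM1 held 7.02% ± 0.427 and 6.85% ± 1.39, so its share of the summed signal differed by less than the spread between libraries.

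The ratio of LSM1 to LSM8 sets the mRNA that marks the decay ring against the mRNA that marks the U6 ring. It was 0.873, 0.878, 0.817 and 0.643 in the DMSO libraries and 0.454, 0.606, 0.428 and 0.265 in the SF153 libraries. The groups did not overlap, although DMSO 2.2 and SF153 1.2 lay close to each other. The mean ratio was 0.803 ± 0.110 with DMSO and 0.438 ± 0.139 with SF153 (SD, n = 4 each). This plain ratio is free of any factor that scales a whole library. On the log2((LSM1 + 1)/(LSM8 + 1)) scale, which is not wholly free of such a factor, the difference was -0.68 in batch 1 and -1.0 in batch 2.

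**Figure D2:**
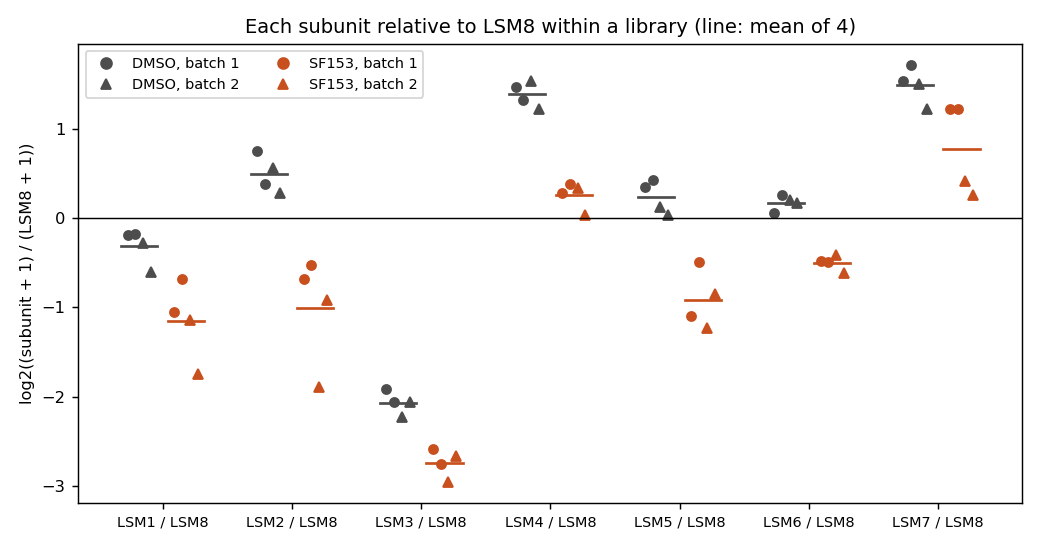
Log2 ratio of (subunit + 1) to (LSM8 + 1) within each library, for LSM1 to LSM7, with DMSO in grey and SF153 in orange, circles for batch 1, triangles for batch 2 and a line at the mean of 4. For each of the 7 subunits the SF153 libraries lie below the DMSO libraries, for LSM7 only narrowly. The mean difference is -0.67 for LSM6 and -1.50 for LSM2.

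All 28 pairs of the 8 genes were compared by an exact two-sided permutation test of their log2((a + 1)/(b + 1)) ratio over the 8 libraries. The smallest p that 4 libraries against 4 allow is 0.0286, and 10 pairs reached it. Adjusted over the 28 pairs, the smallest p was 0.08, so 0 pairs passed 0.05 in this exact permutation test. With a smallest possible p of 0.0286, no pair could pass alone among 28, however large its change. That 0 pairs passed is therefore not read as equal changes. The 10 pairs included all 7 with LSM8, which share the LSM8 values. In each of these 7, all 4 SF153 ratios to LSM8 lay below all 4 DMSO ratios on this scale. For LSM7 the groups nearly touched, at 1.224 in DMSO 2.2 and 1.223 in SF153 1.2. Without the added 1, the ratio of LSM7 to LSM8 overlapped between the groups. The log2 ratio differed by -0.84 for LSM1, -1.50 for LSM2, -0.68 for LSM3, -1.13 for LSM4, -1.15 for LSM5, -0.67 for LSM6 and -0.72 for LSM7. The other 3 pairs were LSM2 to LSM3 (-0.83), LSM2 to LSM6 (-0.83) and LSM4 to LSM6 (-0.46). Between LSM4 and LSM5 the difference of the log2 ratio was 0.02 and between LSM3 and LSM6 it was -0.01, each with an exact permutation p of 1.0. The added 1 shrinks the change of LSM3, whose signal is low, so the pairs with LSM3 depend on it. With a pseudocount of 0.1 the limma differences of the single genes were -1.12 for LSM3 and -0.91 for LSM6. Without the added 1, the ratio of LSM2 to LSM3 overlapped between the groups.

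**Figure D3:**
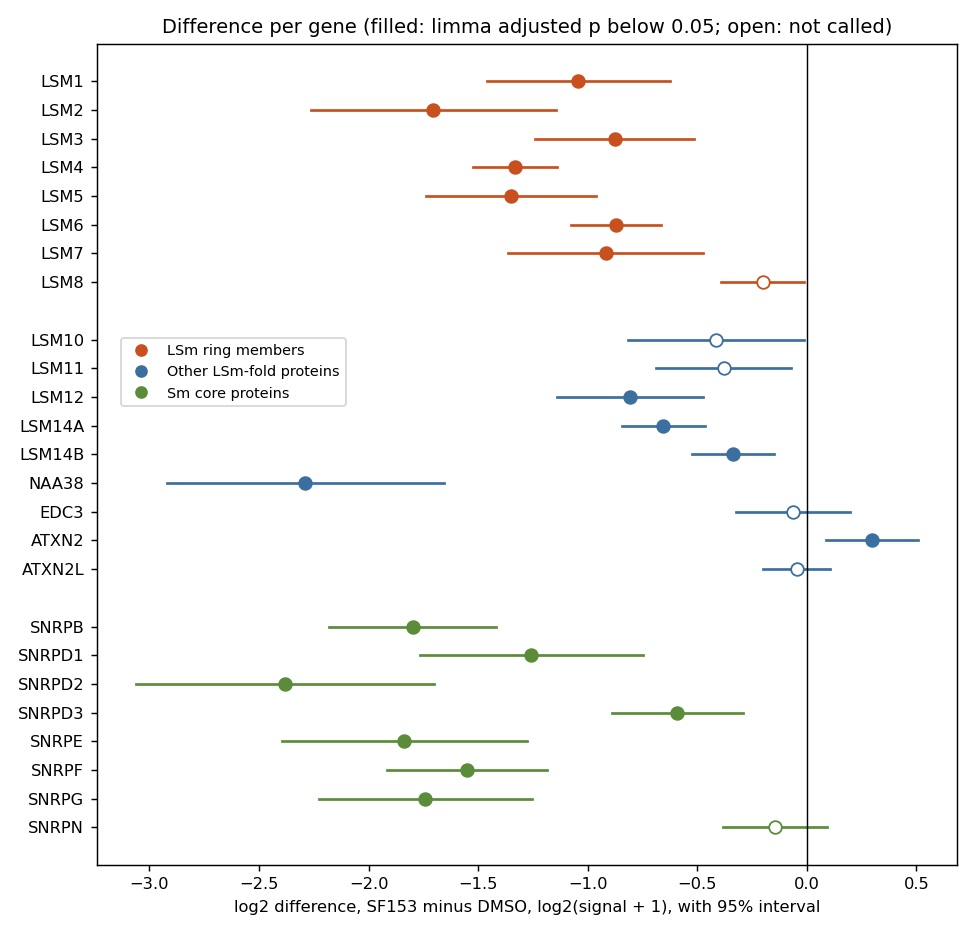
Log2 difference of SF153 minus DMSO with its 95% interval (limma, log2(signal + 1), n = 4 each) for the 8 LSm ring genes, 9 other genes with an LSm-type fold and 8 Sm genes; filled points passed an adjusted p of 0.05 and open points did not. The interval of LSM8, from -0.39 to -0.01, does not reach that of LSM1, from -1.46 to -0.63.

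Of 9 tested genes for other proteins with an LSm-type domain, 4 were lower and 1 was higher, with a median log2 difference of -0.38. Of all genes tested, 24.3% were called lower and 13.0% higher. Without mitochondrial and small RNA genes, 3 were lower and 2 higher, with a median of -0.10. In that setting 13.8% of all genes tested were called lower and 35.0% higher, and their median was 0.26. NAA38, an Sm-like subunit of the NatC N-terminal acetyltransferase, went from 33.6 ± 9.05 to 6.31 ± 3.19 (log2 difference -2.29, limma adjusted p = 0.000245). LSM12 was lower by -0.81, LSM14A by -0.65 and LSM14B by -0.34, the last of which was no longer called, at -0.01, without mitochondrial and small RNA genes. LSM14A and LSM14B bind the translational repressor DDX6. LSM10 and LSM11, which replace a pair of Sm proteins in the U7 ring for histone mRNA 3′ ends, differed by -0.41 and -0.38 and were not called, and neither were the decapping enhancer EDC3 (-0.06) and ATXN2L (-0.05). ATXN2, an RNA-binding protein with an LSm domain, was higher by 0.30, but this call was lost on leaving out any one of DMSO 1.1 (0.30), DMSO 1.2 (0.31), DMSO 2.1 (0.25), SF153 2.1 (0.29) or SF153 2.2 (0.23).

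The Sm proteins, closest in fold to the LSm proteins, were lower in 7 of 8 genes, with a median log2 difference of -1.65. Of all genes tested, 24.3% were called lower. Without mitochondrial and small RNA genes 6 of 8 were lower, a setting in which 13.8% of all genes were called lower. SNRPD2 went from 178 ± 16.2 to 36.7 ± 18.2 (log2 difference -2.38, limma adjusted p = 0.000289). SNRPE differed by -1.84, SNRPB by -1.80, SNRPG by -1.74, SNRPF by -1.55, SNRPD1 by -1.26 and SNRPD3 by -0.59. SNRPN, the tissue-restricted relative of SNRPB, was not called (-0.14). Of the 14 tested proteins that methylate Sm proteins or load their ring, in the SMN complex and the methylosome, 7 were lower and 1 was higher, with a median of -0.49, and 4 were lower and 1 higher without mitochondrial and small RNA genes. Of all genes tested, 24.3% were called lower and 13.0% higher as reported, and 13.8% and 35.0% in that setting. Among the 14, COPRS (-1.53) and STRAP (-1.29) changed most, followed by GEMIN5 (-0.80) and GEMIN4 (-0.63). GEMIN7 was the 1 higher gene, at 0.28, and its call was lost without DMSO 2.1 (0.26), DMSO 2.2 (0.20), SF153 1.1 (0.27), SF153 1.2 (0.29), SF153 2.1 (0.28) or SF153 2.2 (0.27). SMN1 and SMN2 are near-identical copies between which reads may be split, so their separate values are uncertain.

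The partners of the U6 ring were lower in 10 of 19 tested genes and higher in 0 (12 and 0 at an unadjusted limma p under 0.05), with a median log2 difference of -0.36, but with mitochondrial and small RNA genes removed the counts were 4 lower and 5 higher with a median of -0.02. In that setting 13.8% of all genes tested were called lower and 35.0% higher, with a median of 0.26. As reported, 24.3% of all genes tested were called lower and 13.0% higher. SNU13, which binds U4 at the start of U4/U6 assembly, went from 41.2 ± 3.45 to 19.9 ± 4.62 (log2 difference -1.04, limma adjusted p = 0.000659). PRPF4, of the U4/U6 particle, and SNAPC2, of the complex that starts transcription of U6, each differed by -0.77. SSB, the La protein that holds new U6 ends before the LSM2 to LSM8 ring, went from 88.0 ± 2.82 to 58.9 ± 4.69, a log2 difference of -0.57 (limma adjusted p = 0.000332). U6 and U4 RNA themselves were not analysed here.

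**Figure D4:**
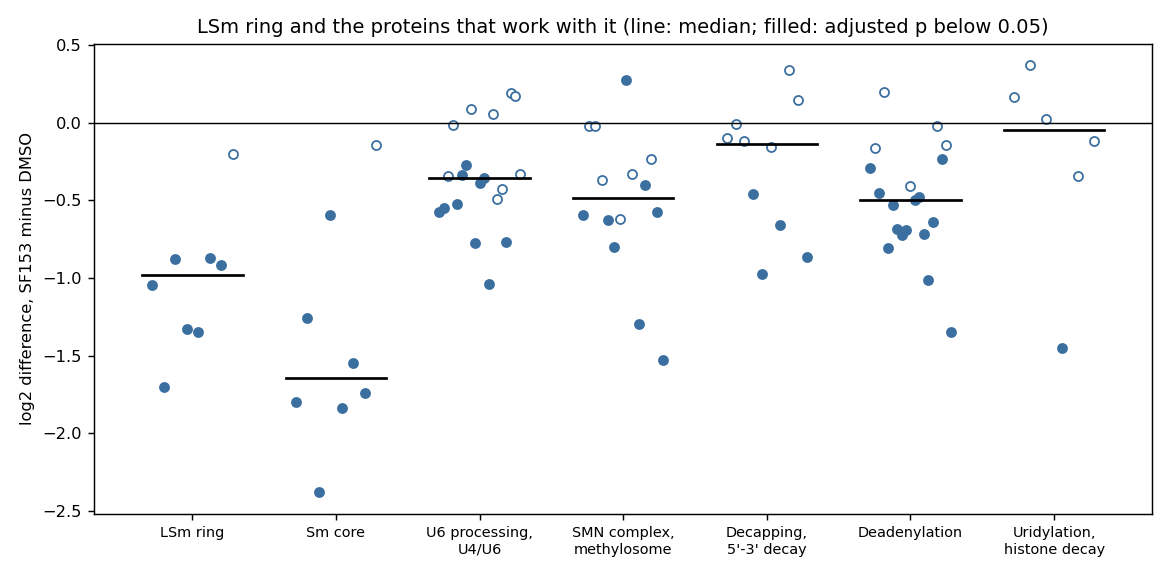
Log2 difference of SF153 minus DMSO for each gene of the LSm ring and of 6 lists of related proteins; filled points passed a limma adjusted p of 0.05, open points did not, and lines mark medians. The medians run from -1.65 for the Sm core and -0.98 for the LSm ring to -0.05 for uridylation and histone decay.

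The partners of the LSM1 ring in decapping were lower in 4 of 10 tested genes and higher in 0 (4 and 1 at an unadjusted limma p under 0.05), with a median log2 difference of -0.14; the counts were 3 and 2, with a median of 0.17, after removal of the mitochondrial and small RNA genes. Of all genes tested, 24.3% were called lower as reported, and in the latter setting 13.8% were lower and 35.0% higher, with a median of 0.26. PATL1, which joins the ring to the decapping enzyme, went from 15.5 ± 1.04 to 14.4 ± 1.60 (SD, n = 4 each) and was not called (-0.10). DCP2, the catalytic subunit, was lower by -0.46, the helicase DDX6 by -0.66, PNRC1, a nuclear receptor coregulator counted with the decapping factors, by -0.87, and DCPS, which clears the cap left after decay from the 3′ end, by -0.98. XRN1, the 5′ to 3′ exonuclease, differed by 0.34 and was not called, but was called higher without SF153 1.2 (0.41) and under 3 other scalings (0.41 to 0.67). Among 19 tested genes of deadenylation, the step that comes before LSM1 ring binding, 14 were lower and 0 higher (15 and 0 at an unadjusted limma p under 0.05), with a median of -0.50, and the counts were 7 and 2 once mitochondrial and small RNA genes were removed. PABPC1, the poly(A)-binding protein, differed by -1.35, BTG1, which recruits the CNOT deadenylases, by -1.01, and the nucleases CNOT6 by -0.81 and CNOT8 by -0.73. In uridylation and histone mRNA decay, which also use the LSM1 ring, 1 of 6 tested genes was lower, SLBP, the histone stem-loop binding protein, by -1.45. With median-of-ratios scaling 2 others were called higher, where 2566 of all 15547 genes tested were called higher.

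LSM1, LSM3, LSM5 and LSM7 each start head to head with another gene, with starts 5 to 425 bases apart. The starts of LSM7 and SPPL2B lie 5 bases apart on opposite strands. SPPL2B, an intramembrane protease, went from 134 ± 3.14 to 159 ± 8.37 and was higher by 0.24 (limma adjusted p = 0.0124), while LSM7 was lower by -0.92. The SPPL2B call was lost in batch 2 alone (0.18). AVL9 starts 143 bases from LSM5 and differed by 0.07 beside -1.35 for LSM5. BAG4 starts 197 bases from LSM1 and differed by -0.24 beside -1.04 for LSM1, and XPC starts 425 bases from LSM3 and differed by -0.27 beside -0.88 for LSM3. AVL9, BAG4 and XPC were not called, although XPC was called lower without DMSO 1.2 (-0.40). The difference between the 2 genes of a pair was not tested. The libraries keep strand, but the sources used here do not say whether reads were assigned by strand, so reads where BAG4, XPC and SPPL2B overlap their partners may be shared. The nearest gene on either side was taken among genes with values in the data. Some therefore lie far off, such as ING3, 2757925 bases from LSM8. Over all 16 such genes, 5 were lower and 3 were higher, where 24.3% and 13.0% of all genes tested were called, so these counts are read as no result about the neighbours.

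Outside the 8 genes, those whose log2 values across the 8 libraries were most like the average of the LSm genes were ZFP91 (Pearson r = 0.999), HMGN2 (0.997), ADNP (0.997), GOLGA7 (0.997) and CACYBP (0.996), among 11080 candidates. The 8 libraries fall into the 2 treatments, and no p is given. Since the LSm average was lower with SF153, the choice itself fixed the direction of these genes, and their log2 differences are given only as a description: ZFP91, a zinc finger ubiquitin ligase, by -0.69, HMGN2, a nucleosome-binding protein, by -1.21, ADNP, a chromatin factor, by -0.51, GOLGA7, a subunit of a palmitoyltransferase, by -1.11, and CACYBP, the calcyclin-binding protein, by -1.45.

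**Figure D5:**
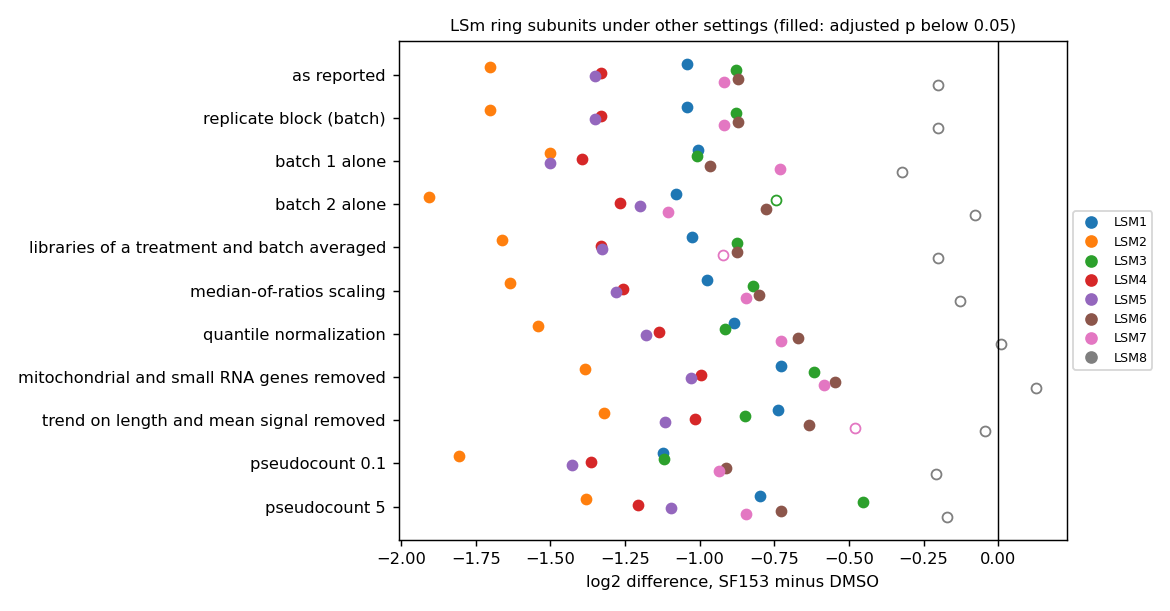
Log2 difference of SF153 minus DMSO for LSM1 to LSM8 as reported and under 10 alternative settings; filled points passed a limma adjusted p of 0.05, and points are staggered vertically so that none is hidden. LSM2 stays lowest or level with LSM5 in each setting shown, and LSM8 stays closest to 0, between -0.32 and 0.13, and open throughout.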

How the data were processed

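RNA of 8 NKM-1 libraries, 4 per treatment, was measured. The deposited signal values are called both CPM and TPM per the labels; their column sums differed, so they are not plain TPM, although the plan had assumed TPM. CASAVA 1.8.2, STAR, Salmon, edgeR and GRCh38 are named, without roles, per the submitters' processing notes. Depth is unknown, so no counting interval or floor is given. A share-type value rises where abundant transcripts fall, and falls where they rise. With SF153 the mitochondrial share was higher in batch 2 and that of RN7SK was higher in batch 1. The part of this in the lower calls was not tested.

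Groups and batch numbers came from the sample labels. With limma 3.58.1 in R 4.3.3, log2(signal + 1) was fitted with an intensity trend and no batch term for genes whose signal averaged 1 or more, adjusted over all genes tested. Pair ratios had an exact permutation test. The procedure was tested on simulated data. The batch number taken from the titles pairs libraries. Deviations of same-batch libraries of the other treatment had a mean r of 0.026 (lowest -0.0041, highest 0.059).

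The members and lists were chosen with earlier results of these data known. Named were the 8 genes, all other LSm-fold and Sm genes, up to 4 called genes of each other list with the largest difference, neighbours, pseudogenes, and the 5 genes most alike with a mean of at least 5. PATL1, XRN1, GEMIN7, SMN1 and SMN2 fall outside that rule and were chosen after their values were seen, and CD79A and PDGFRB are listed markers. Alternatives covered pseudocount, filter, scaling, variance model, batch, averaging, a length and signal trend, and leaving out libraries.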

Additional observations from a re-analysis of the deposited data

How the results depend on the processing

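The limma differences and counts of calls were recomputed under 21 alternatives (20 for LSM3, whose mean signal is below 5); the order of signals, ring shares, likeness and motif matches were not. LSM1, LSM2, LSM4, LSM5 and LSM6 were called lower in all 21. LSM3 was not called in batch 2 alone, and LSM7 was not called with averaged libraries or with the length and signal trend removed. The LSm count stayed at 7 with the replicate block (batch as a paired factor) and in each leave-one-out fit; over all genes the replicate block gave 5943 calls against 5785, and it changed no other call of the 8 genes. Leaving out 1 library gave between 4886 and 5371 calls. Batch 1 alone gave 3416 calls (2443 lower, 973 higher), batch 2 alone 3594 (957 higher) and averaged libraries 3429 (910 higher), each from fewer samples.

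Scaling moved the balance of calls. Calls that were higher made up 34.8% as reported, 43.8% with median-of-ratios scaling, 53.4% with quantile normalization (3230 higher), 53.1% with the trend removed (3091 higher) and 71.8% without mitochondrial and small RNA genes (2115 lower, 5382 higher). The last setting shifted the median of all genes by 0.30, to 0.26, and the LSm median from -0.98 to -0.67. That median was -1.12 with a pseudocount of 0.1, -0.82 with a pseudocount of 5, -0.79 with the trend removed, and between -1.11 and -0.91 on leaving out 1 library.

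Of the related lists, 49 genes were called, 47 lower and 2 higher. The lists held 9, 8, 19, 14, 10, 19 and 6 tested genes, and 24.3% of all genes tested were called lower and 13.0% higher. Batch 1 alone gave 28 lower and 0 higher, beside 2443 lower and 973 higher of all 15497 genes tested in that fit. Removal of mitochondrial and small RNA genes gave 28 lower and 14 higher, beside 13.8% and 35.0% of all genes tested. The higher count was 0 with averaged libraries or no intensity trend, 6 with median-of-ratios scaling, 9 with quantile normalization, 7 with the trend removed, and 0 to 3 on leaving out 1 library. Over all genes tested, 910 of 15542 were called higher with averaged libraries and 1951 of 15542 with no intensity trend. The same counts were 2566 of 15547 with median-of-ratios scaling, 3230 of 15538 with quantile normalization and 3091 of 15067 with the trend removed. Leaving out 1 library gave between 1551 and 1797 higher. Direction turned without mitochondrial and small RNA genes for ATXN2L (0.30), SART3 (0.32), METTL16 (0.049), CNOT1 (0.048), PAN2 (0.32), PAN3 (0.11) and the marker PTPRC (0.19). With quantile normalization it turned for ATXN2L (0.33), PTPRC (0.36) and MPO (0.42), and with the trend removed for ATXN2L (0.32), PPIH (0.18) and PTPRC (0.19). The cause was not tested.

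The log2 ratio of LSM1 to LSM8 differed by -0.84 as reported and by between -1.0 and -0.64 on leaving out 1 library. With a pseudocount of 0.1, 8 pairs reached the smallest exact p and 0 passed adjustment. The permutation test was not run with fewer libraries, where its smallest p is 0.0571 for 4 against 3 and 0.333 for 2 against 2. Unknown depth leaves the counting error of low genes such as LSM3 unmeasured.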
